A study of Mus musculus with 8 samples.

Results

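A set of 10 genes of hepatic iron handling were followed in AML12 cells, a non-tumour mouse hepatocyte line, on Affymetrix MoGene 2.0 ST arrays. The genes were Hamp, Trf, Cp, Tfrc, Tfr2, Hfe, Slc11a2, Slc40a1, Hmox1 and Aco1, and each was taken by its symbol in the platform annotation. Every gene had 1 transcript cluster, the set of probes summarised as 1 value, so that 10 of 41345 clusters on the array were members. The cluster of Trf also carried Srprb, its neighbour in the genome, and its values cannot be assigned to either gene alone. One group of 4 samples stably expressed Zfp125, a zinc finger protein, and the other group of 4 carried the empty vector (EV). All cells had gone through G418 selection and were grown in control medium. Whether the 4 samples of each group came from independent cultures or lines is not stated in the labels, so the errors and p-values cover the variation among these samples, part or all of which may be technical. No cluster carried the symbol Zfp125 in the annotation used, so its expression was not checked here.

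Liver is the body's main iron store and the source of its iron hormone. Hepatocytes secrete hepcidin, encoded by Hamp, which binds the iron exporter ferroportin (Slc40a1) and causes its removal from the cell surface. They also secrete transferrin (Trf), which carries ferric iron in plasma, and ceruloplasmin (Cp), a copper oxidase that loads iron onto it. Transferrin receptor 1 (Tfrc) brings the loaded carrier into the cell, while transferrin receptor 2 (Tfr2) and Hfe sense it and raise Hamp transcription together with bone morphogenetic protein (BMP) signals. Slc11a2 (DMT1) moves ferrous iron across membranes, Hmox1 releases iron from heme, and Aco1 is iron regulatory protein 1, which binds ferritin and transferrin receptor mRNAs when iron is short.

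Hepcidin mRNA was lower in Zfp125 cells on every array. On the log2 scale, the 4 EV arrays read 3.81, 3.56, 4.39 and 4.10 for Hamp in the order of replicates 1 to 4. The 4 Zfp125 arrays read 2.98, 3.29, 2.79 and 3.10. The groups did not overlap, and the EV arrays were spread more widely than the Zfp125 arrays (SD 0.36 and 0.21, n = 4 each). The change, Zfp125 minus EV, was -0.92 ± 0.18 (standard error; 95% interval -1.33 to -0.52), a 1.90-fold lower level. With limma's moderated test adjusted by the Benjamini-Hochberg method over all 41345 clusters, the threshold of 0.05 was not reached (adjusted p = 0.11). When 22180 genes with 1 cluster each were tested, the same change passed (adjusted p = 0.0137). Over 16 alternatives without pairing the adjusted p lay between 0.0137 and 0.27. Hamp was dim, since both group means (3.97 and 3.04) were below the median of all clusters, 4.34, and no detection call was available. A change at least this far below 0 was measured for 82 of 41345 clusters, Hamp included, of which 30 were at or below the median level.

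The neighbouring paralogue Hamp2 had means of 3.55 ± 0.23 in EV and 3.56 ± 0.17 in Zfp125 cells (SD, n = 4) and a change of 0.01 ± 0.14, with a 95% interval of -0.30 to 0.31. Within each array, the difference Hamp minus Hamp2 ranged from 0.30 to 0.68 in EV and from -0.82 to -0.20 in Zfp125 cells. The mean of this difference in Zfp125 cells minus that in EV was -0.93 on the log2 scale. The comparison was chosen after the values were seen and is given as a description only. Hamp and Hamp2 are close in sequence, and the sharing of probe signal between them was not tested.

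**Figure D1:**
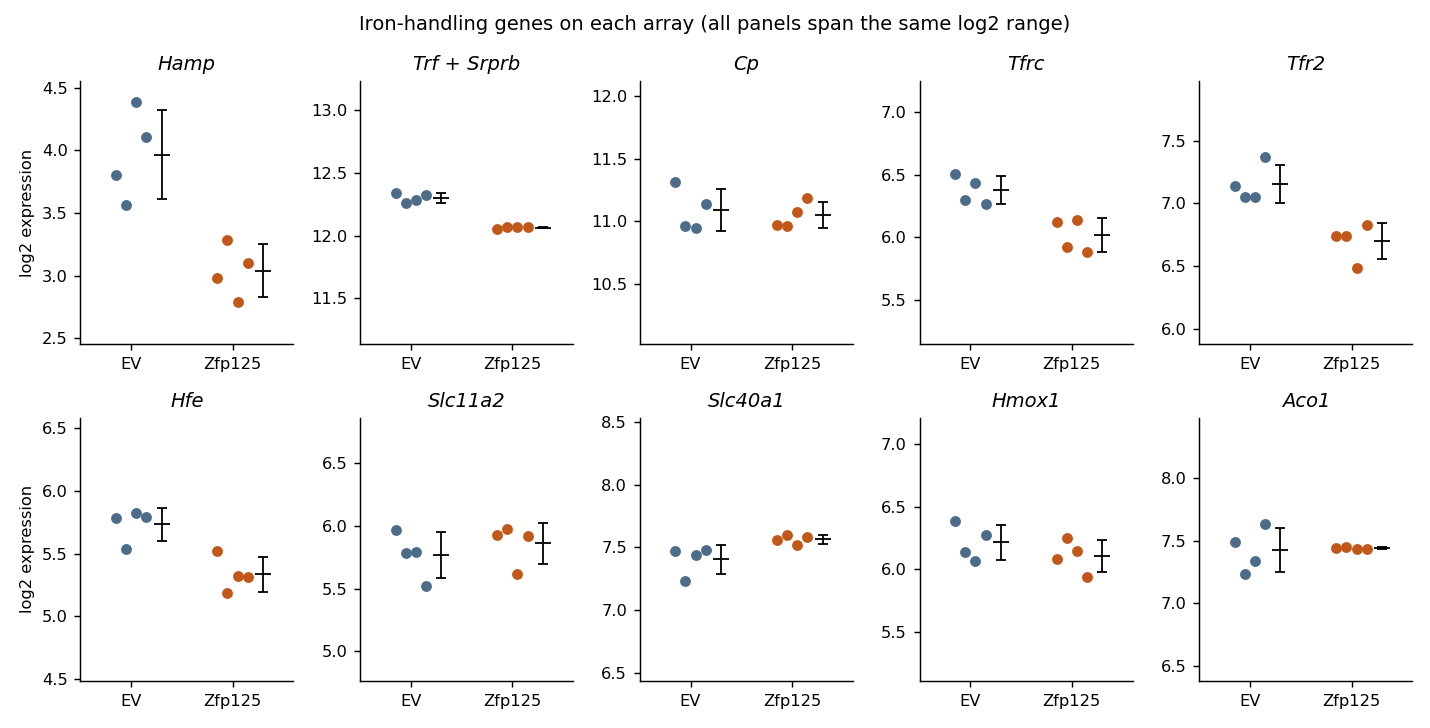
Log2 expression of the 10 iron-handling clusters on each array, with 4 EV and 4 Zfp125 points per panel and the mean with its SD as a bar beside them. All panels have the same height in log2 units. Hamp, Trf with Srprb, Tfrc, Tfr2 and Hfe lie lower in every Zfp125 array than in any EV array, and Slc40a1 lies higher.

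Among the plasma proteins of iron transport, the cluster shared by Trf and Srprb was slightly lower in Zfp125 cells and ceruloplasmin overlapped. The shared cluster read 12.34, 12.26, 12.28 and 12.33 in EV cells and 12.05, 12.07, 12.07 and 12.07 in Zfp125 cells. The groups were apart although the change was small, -0.24 ± 0.07, a 1.18-fold lower level (adjusted p = 0.326). Its spread was among the narrowest of the members, with an SD of 0.01 in Zfp125 cells, and with a trended, robust prior in limma it passed the test (adjusted p = 0.039). Srprb encodes a subunit of the signal recognition particle receptor, through which secreted proteins enter the endoplasmic reticulum. Cp read 11.31, 10.96, 10.94 and 11.14 in EV cells and 10.97, 10.97, 11.07 and 11.18 in Zfp125 cells. The Cp values were intermixed, the change was -0.04 ± 0.11 (adjusted p = 0.951), and the 95% interval of -0.28 to 0.20 leaves room for a change of either sign. The sign of the Cp change turned to 0.03 when replicate 1 of the EV cells was left out.

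The 3 genes of transferrin uptake and iron sensing were each lower in all Zfp125 arrays, and none passed the test. Tfr2, the hepatocyte iron sensor, read 7.14, 7.05, 7.05 and 7.37 in EV cells and 6.74, 6.74, 6.49 and 6.83 in Zfp125 cells. Its change was -0.45 ± 0.11, a 1.37-fold lower level (adjusted p = 0.201). Hfe, the MHC class I-like partner of the receptors, read 5.79, 5.54, 5.82 and 5.79 in EV cells and 5.52, 5.19, 5.32 and 5.31 in Zfp125 cells. The Hfe groups were separated by only a narrow gap, from EV replicate 2 at 5.54 to Zfp125 replicate 1 at 5.52. The change of Hfe was -0.40 ± 0.10, a 1.32-fold lower level (adjusted p = 0.23). Tfrc, the receptor that imports loaded transferrin, read 6.51, 6.30, 6.43 and 6.26 in EV cells and 6.12, 5.92, 6.14 and 5.89 in Zfp125 cells. The lowest EV array and the highest Zfp125 array of Tfrc were 6.26 and 6.14. Its change was -0.36 ± 0.10, a 1.28-fold lower level (adjusted p = 0.27). The 95% intervals of the 3 changes lay below 0, reaching from -0.70 to -0.20 for Tfr2, from -0.63 to -0.17 for Hfe and from -0.58 to -0.13 for Tfrc. With 1 cluster a gene their adjusted p-values were 0.0677, 0.0944 and 0.133, so these did not pass there either.

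The membrane transporters had changes of the opposite sign that did not pass the test. Slc40a1, ferroportin, read 7.47, 7.23, 7.43 and 7.48 in EV cells and 7.56, 7.60, 7.52 and 7.58 in Zfp125 cells. The groups did not overlap, and the gap between EV replicate 4 and Zfp125 replicate 3 was narrow. The change of Slc40a1 was 0.16 ± 0.09, with a 95% interval of -0.04 to 0.35 (adjusted p = 0.624). Slc11a2 read 5.97, 5.79, 5.79 and 5.52 in EV cells and 5.93, 5.98, 5.62 and 5.92 in Zfp125 cells, with overlapping groups. Its change was 0.09 ± 0.12, with a 95% interval of -0.18 to 0.37 (adjusted p = 0.875). The change was 0.01 without EV replicate 4, 0.16 without EV replicate 1 and 0.18 without Zfp125 replicate 3.

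Heme oxygenase 1 and iron regulatory protein 1 did not separate the groups. Hmox1, which is induced by heme and oxidative stress, read 6.39, 6.14, 6.06 and 6.27 in EV cells and 6.08, 6.25, 6.15 and 5.94 in Zfp125 cells. The Hmox1 change was -0.11 ± 0.10 (adjusted p = 0.807), with a 95% interval of -0.35 to 0.12. Aco1 read 7.49, 7.23, 7.34 and 7.63 in EV cells and 7.44, 7.45, 7.43 and 7.43 in Zfp125 cells. The means of Aco1 were 7.42 and 7.44, and the change was 0.02 ± 0.10 (adjusted p = 0.981), with a 95% interval of -0.21 to 0.24. The sign of the Aco1 change turned on leaving out EV replicate 2 or 3, with changes of -0.05 and -0.01.

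**Figure D2:**
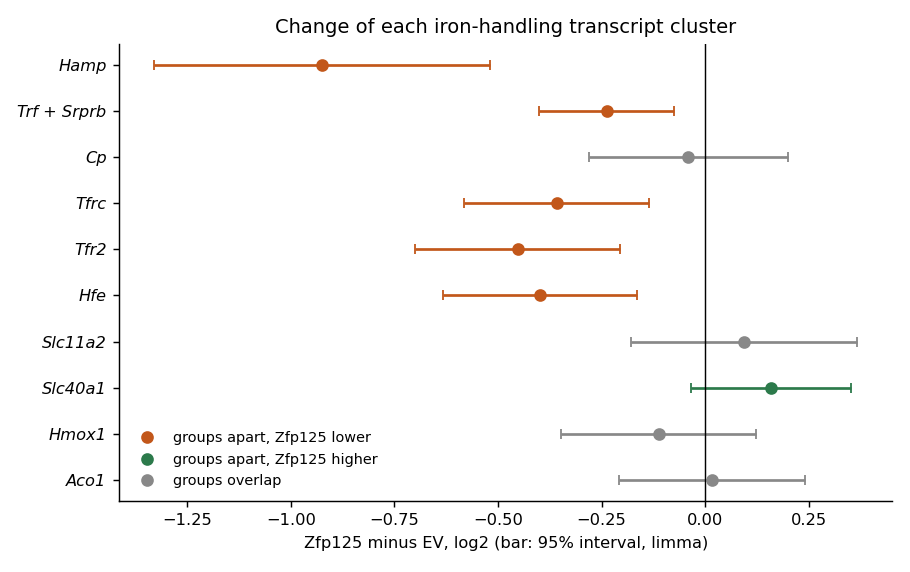
Change of each member, Zfp125 minus EV on the log2 scale, as a point with limma's 95% interval, coloured by whether the 4 arrays of each group overlap. The intervals of Hamp (-1.33 to -0.52), Trf with Srprb, Tfrc, Tfr2 and Hfe lie below 0. The interval of Slc40a1 includes 0, although its groups are apart.

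Counted together, 0 of the 10 member clusters passed the test over all clusters, against 0.148% of all 41345 clusters (61, of which 51 were lower and 10 higher). At an unadjusted p under 0.05, 5 members were lower and 0 higher, where 4.52% of all clusters were lower and 4.91% higher. The same 5, Hamp, Trf with Srprb, Tfrc, Tfr2 and Hfe, were lower with groups that did not overlap, against 3.03% of all clusters. Slc40a1 was the 1 member that was higher without overlap, against 3.2% of all clusters. The median change of the members was -0.17, that of all clusters was -0.00095, and 7 of the 10 changes were negative. With 1 cluster a gene, 1 of the 9 members that could be tested passed, Hamp, where 1.08% of 22180 genes passed. The members were chosen with results of these data known, so these counts describe the genes and test nothing. Of the member clusters, 9 lay above the median level, all but Hamp. Among clusters above that level, 4.18% were lower without overlap.

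Iron storage showed the same direction in the light chain of ferritin and a smaller difference in the heavy chain. All 6 clusters that carried Ftl1, the ferritin light chain, also carried Ftl1 pseudogenes, and 2 of them held identical values, so they are not separate measurements. Their changes ran from -0.56 to -0.28, and 5 of the 6 were lower in Zfp125 cells without overlap, against 3.03% of all clusters. None passed the test (adjusted p from 0.068 to 0.49). Signal from the gene and from its pseudogenes cannot be told apart. Fth1, the heavy chain, had means of 12.33 ± 0.05 and 12.17 ± 0.06 (SD, n = 4), groups that did not overlap, and a change of -0.15 ± 0.08 (adjusted p = 0.6). Ncoa4, the receptor that sends ferritin to lysosomes, had a change of -0.03 ± 0.10. Of 7 single-symbol clusters in the storage list, which holds no light chain, 0 passed the test and the median change was -0.02. Ireb2, iron regulatory protein 2, had means of 6.37 ± 0.19 in EV and 6.70 ± 0.09 in Zfp125 cells and a change of 0.33 ± 0.11 (adjusted p = 0.38). In its list of iron regulatory protein partners, 0 of 6 clusters passed, with a median change of 0.03.

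Outside the members, the iron gene that passed the test was haptoglobin. Of 91 single-symbol clusters of 88 other iron genes, 1 passed, that of Hp, against 0.148% of all clusters. The median change was -0.04, and 58 of the 91 changes were negative. Without overlap 12 were lower and 4 higher, against 3.03% and 3.2% of all clusters. The lists were chosen with results of these data known, so these counts test nothing. Hp, the plasma protein that binds free hemoglobin, read 10.55, 10.62, 10.71 and 10.87 in EV cells and 8.90, 8.81, 8.99 and 9.40 in Zfp125 cells. It fell by 1.66 ± 0.14, a 3.16-fold lower level (adjusted p = 0.00422). Replicate 4 of the Zfp125 cells was the closest to the EV arrays, and without it the change was -1.78 (adjusted p = 0.00217). Hpx, hemopexin, the heme carrier of plasma, had a change of -0.51 ± 0.12 (adjusted p = 0.201) and likewise its highest Zfp125 value in replicate 4, at 9.77. Blvrb, a biliverdin reductase, ranged from 5.98 to 6.20 in EV and from 5.56 to 5.79 in Zfp125 cells. Its change was -0.46 ± 0.09 (adjusted p = 0.123, and 0.0352 with 1 cluster a gene). Blvra, the other biliverdin reductase of the list, had a change of -0.05 ± 0.11 (adjusted p = 0.931) and overlapping groups. Bach1, the heme-sensing repressor of Hmox1, differed by 0.01 ± 0.08. Of the genes for heme scavenging, transport and breakdown, 1 of 13 clusters passed, that of Hp. Without overlap 3 were lower, against 3.03% of all clusters.

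Among genes for iron import, 0 of 13 clusters passed. Slc39a14 (ZIP14), which takes up iron not bound to transferrin, had means of 8.80 ± 0.13 and 8.41 ± 0.06 without overlap and a change of -0.39 ± 0.09 (adjusted p = 0.184). Lcn2, a siderophore-binding protein of the acute phase, had a change of -0.56 ± 0.14 (adjusted p = 0.227), and its groups overlapped through Zfp125 replicate 4 at 11.07. Steap3, an endosomal ferric reductase, differed by -0.08 ± 0.12. Among the genes of mitochondrial iron and heme synthesis, 0 of 9 clusters passed, and the median change was -0.02.

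Genes that govern hepcidin transcription were mixed in direction. Of 24 clusters of BMP and SMAD genes 0 passed, and the median change was 0.10. Without overlap 2 were lower and 4 higher, against 3.03% and 3.2% of all clusters. Tmprss6, the membrane protease that dampens hepcidin induction, had means of 5.54 ± 0.15 and 5.10 ± 0.10 (SD, n = 4) and a change of -0.44 ± 0.10 (adjusted p = 0.174). The ligand Bmp4 had a change of -0.63 ± 0.16 (adjusted p = 0.21), while Bmp6, the iron-induced ligand of liver, had one of -0.09 ± 0.10. Among those with the opposite sign, the BMP receptor Bmpr2 had a change of 0.40 ± 0.10 (adjusted p = 0.223). Another cluster, shared by Bmpr2 and Gm20272 and left out of the list count, had a change of 0.01 ± 0.12 with overlapping groups. Atoh8, a transcription factor linked to hepcidin control, had means of 5.31 ± 0.11 and 6.05 ± 0.26 and a change of 0.74 ± 0.13, a 1.67-fold higher level (adjusted p = 0.0931, and 0.0117 with 1 cluster a gene). The BMP response genes Id1 and Smad7 had changes of 0.09 ± 0.10 and 0.19 ± 0.09, and the co-receptor Hjv one of -0.01 ± 0.17.

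On the inflammatory arm, 0 of 11 clusters passed and 3 were lower without overlap, against 3.03% of all clusters. The 3 were Cebpa, with a change of -0.39 ± 0.12 (adjusted p = 0.344), Cebpb, with -0.20 ± 0.08 (adjusted p = 0.46), and Il6ra. Il6ra, the interleukin-6 receptor subunit, had means of 6.41 ± 0.05 and 6.06 ± 0.12 and a change of -0.35 ± 0.09 (adjusted p = 0.215). Stat3, the factor that carries the interleukin-6 signal to the nucleus, had a mean of 8.05 in both groups and a change of 0.01 ± 0.09. In the hypoxia list 0 of 7 clusters passed, and the median change was -0.21. Against 3.03% of all clusters, 2 of the 7 were lower without overlap. These were Egln3, a prolyl hydroxylase, with a change of -0.69 ± 0.13 (adjusted p = 0.112, and 0.0173 with 1 cluster a gene), and Epas1, hypoxia-inducible factor 2 alpha, with -0.46 ± 0.10 (adjusted p = 0.164, and 0.0492 with 1 cluster a gene).

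**Figure D3:**
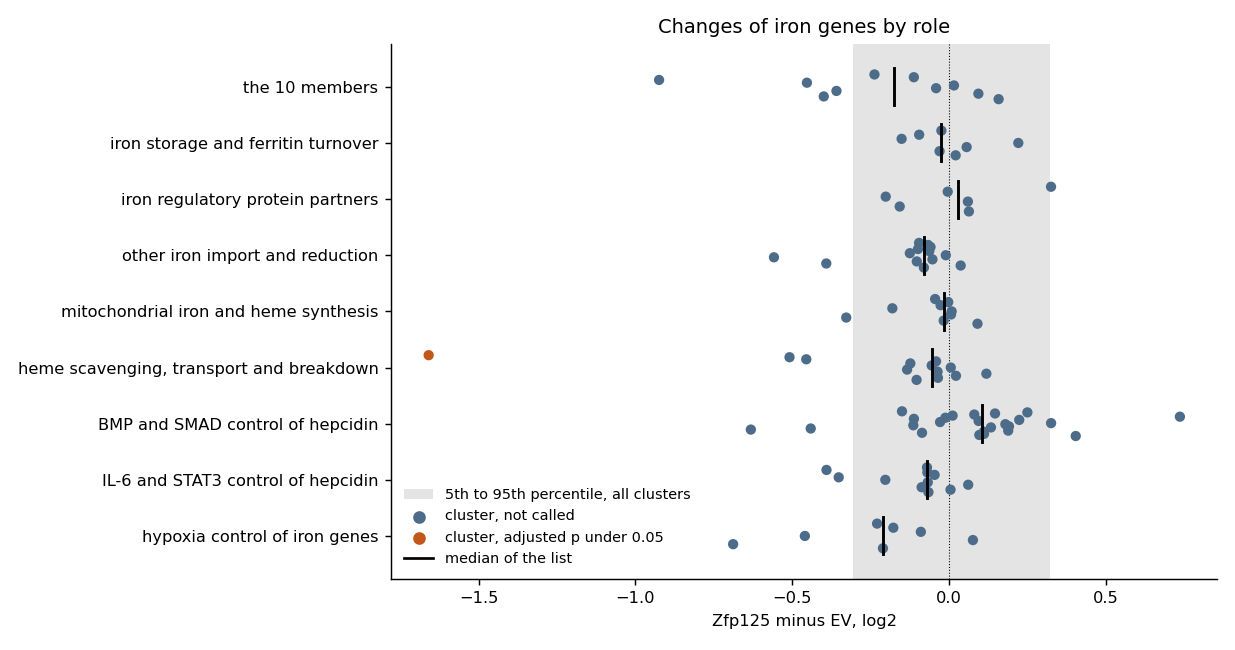
Changes of the 10 members and of the other iron genes by role, Zfp125 minus EV on the log2 scale, with 1 point a cluster, a black line at each list's median and grey from the 5th to the 95th percentile of all clusters (-0.31 to 0.32). Hp is the 1 cluster that passed the test. Hamp, Tfr2, Hfe and Tfrc lie left of the grey band.

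The cells carried hepatocyte transcripts in both groups. Of 10 hepatocyte markers 9 lay above the median level, with Alb at means of 12.96 in EV and 12.48 in Zfp125 cells. Tdo2 was below the median level, with an overall mean of 3.29. The mean of the hepatocyte markers per array ran from 8.93 to 9.23 in EV and from 8.43 to 8.81 in Zfp125 cells, so that it moved in the same direction as Hamp. Of these markers 6 had an unadjusted p under 0.05, all lower, and 1 passed the test, Fgb. The 6 changes were -1.33 for Ahsg, -1.21 for Fgb, -0.84 for Cps1, -0.61 for Apoa1, -0.48 for Alb and -0.38 for Hnf4a. The other changes were small, 0.08 for Ttr, -0.07 for Apob, -0.11 for Serpina1a and -0.15 for Tdo2, with overlapping groups. The groups of Cps1 overlapped too, through Zfp125 replicate 4 at 8.63. The part of the marker changes in those of the iron genes was not tested. In RNA pooled from a cultured line, fewer cells holding a transcript and less of it per cell cannot be told apart. Markers of macrophages and Kupffer cells ran from 4.28 to 4.48 per array in EV and from 4.33 to 4.37 in Zfp125 cells, and 5 of 10 clusters lay above the median level. Endothelial markers ran from 4.32 to 4.45 and from 4.26 to 4.41 (4 of 8 above the median level), and stellate cell and fibroblast markers from 4.22 to 4.30 and from 4.22 to 4.33 (5 of 10). Erythroid markers ran from 4.51 to 4.67 and from 4.51 to 4.66 (3 of 4), and biliary markers, with Sox9 and Krt19 bright, from 6.15 to 6.27 and from 6.11 to 6.31 (3 of 5). Clusters of all 5 lists lay above the median level, and without a detection call that level does not separate expressed genes from others. No cluster of these 5 lists passed the test. At an unadjusted p under 0.05, 2 were higher, Sox9 and Des, and 0 lower.

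The genes whose profiles over the 8 arrays lay closest to that of Hamp, after each was centred on its mean, were Slc16a7, Ces2g, Apoc2, Bco1 and Dusp1. Their root mean square differences from Hamp were 0.17, 0.18, 0.19, 0.20 and 0.20 on the log2 scale, among 22179 genes compared. Apoc2 and Dusp1 fell, with changes of -0.91 (adjusted p = 0.0251) and -1.03 (adjusted p = 0.0117) over all clusters. Closest to the cluster of Trf and Srprb were Sav1, Vmn1r237, Vps37d, Acsl4 and Ccdc50, at differences of 0.03 to 0.04. Their changes lay between -0.26 and -0.18 (adjusted p from 0.29 to 0.52), and Vmn1r237 was dim, with a mean of 2.49 over the 8 arrays. The Trf and Srprb cluster itself changed by only -0.24, so its smaller differences do not mean a closer likeness than those of Hamp. Likeness here largely reflects the difference between the groups, which all 8 arrays share.

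The call of Hamp thus rested on which clusters entered the test, while that of Hp held in 16 of 17 alternatives without pairing. Without variance moderation the adjusted p of Hp was 0.0551.

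**Figure D4:**
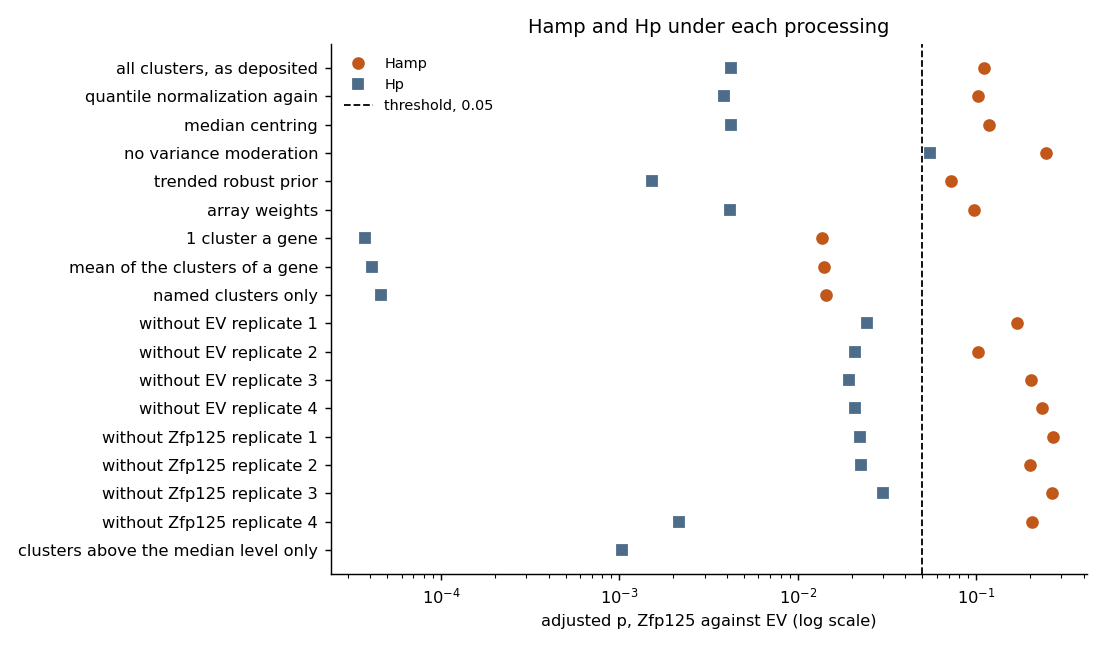
Adjusted p of Hamp (circles) and Hp (squares) for Zfp125 against EV under each processing without pairing, on a log axis, with the threshold of 0.05 dashed. Hamp lies left of the line in 3 of 16 alternatives, those that leave out unnamed clusters from the test, with values near 0.014. Hp lies left of it in all but 1, no variance moderation.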

How the data were processed

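Samples were grouped by their titles, 4 with Zfp125 and 4 with the empty vector. The authors deposited log2 values for 41345 transcript clusters, made with Affymetrix Expression Console and Transcriptome Analysis Console, per the submitters' processing notes. Their background correction and normalization settings were not given in the sources used here. The log2 scale was inferred from array medians of 4.32 to 4.37. The number of arrays limits the precision, and the median SD within a group was 0.17 (EV) and 0.15 (Zfp125).

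Names came from the platform annotation (23521 clusters with 1 symbol, 1814 with several, 16010 unnamed here), updated for 23328 clusters through RefSeq GRCm38.p6. Groups were compared with limma 3.58.1 in R 4.3.3 (lmFit, eBayes), two-sided, with p-values adjusted over all 41345 clusters. A fit with 1 cluster a gene leaves out the cluster that Trf shares with Srprb. A fit on named clusters only keeps that cluster as well, and there the adjusted p of Hamp was 0.0145. The threshold for calling a change was an adjusted p of 0.05. In simulated data with 200 of 41345 clusters changed for Zfp125 against EV, the fit recovered 17.9% of changes of 0.5 on the log2 scale, 92.5% of 1 and 100% of 2, with 7 false calls among 147. The simulated noise was independent and normal, with limma's moderated spreads, which differ less between clusters than the measured ones. Recovery of real changes may thus be lower.

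Members and lists were chosen with earlier results of these data known. The rule named all members, every called gene of the other iron lists, 19 iron genes by symbol, the hepatocyte markers and the 5 genes nearest in profile to Hamp and to Trf. Blvra, Bmp4, Bmpr2, Atoh8, Cebpa, Cebpb, Egln3, Epas1, Sox9, Krt19 and Des were named after their values were seen. Of 94 other iron genes 88 had a cluster of their own, and 13 clusters with several symbols were left out of list counts. Alternatives changed the normalization, centring, filter on dim clusters, prior, array weights, clusters tested and replicate block, or omitted an array. Matplotlib 3.10.9 drew the plots. Upstream sequences are not reported here.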

Additional observations from a re-analysis of the deposited data

Results flagged for a closer look

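Of 56 groups of 4 arrays examined for 28 clusters, 4 held an array whose gap to its nearest neighbour took up more of the group's range than Dixon's test allows at the 95% level, and chance alone marks about 1 in 20 groups. Among the members, Hfe read 5.54 in EV replicate 2, against 5.79 to 5.82 in the other EV arrays. Slc11a2 read 5.615 in Zfp125 replicate 3, against 5.92 to 5.98 in the others. Hpx read 9.769 in Zfp125 replicate 4, against 9.33 to 9.39, and Bmp6 read 4.398 in Zfp125 replicate 3, against 4.15 to 4.16. Zfp125 replicate 4 was also the highest Zfp125 array for Hp, Lcn2 and the hepatocyte markers Ahsg, Fgb, Cps1 and Apoa1. It was not the highest for Hamp (3.10) or Ttr (12.46). Whether the Hpx value belongs to a property of this array was not tested.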

How the results depend on the processing

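Over all clusters 61 passed, and this count was 232 among clusters above the median level, 240 with 1 cluster a gene, 227 with means of clusters, 260 with named clusters only, 196 with a trended, robust prior, 4 without variance moderation, and 16 to 61 over the 8 omissions of an array (lowest without Zfp125 replicate 1). The count of members that passed went from 0 to 1 with 1 cluster a gene, means of clusters and named clusters only (Hamp each time) and with the trended, robust prior (Trf with Srprb), and was 0 in every omission of 1 array. Among other iron clusters the count went from 1 to 4 above the median level and with named clusters only, to 5 with 1 cluster or a mean per gene, to 2 with the trended prior and to 0 without moderation, where 3918 clusters had an unadjusted p under 0.05. Hamp had the same change over all clusters and with 1 cluster a gene, but its unadjusted p from limma was 5.41e-04 and 5.64e-05, since the spread was moderated over other sets of clusters. Members lower without overlap numbered 5 under quantile normalization and median centring too (leaving out an array cannot lower this count), and those lower at an unadjusted p under 0.05 numbered 4 or 5 throughout. Both counts were chosen after seeing the data. Signs of member changes turned only in omissions of 1 array, for Cp (-0.0893 to 0.0327) and Aco1 (-0.048 to 0.0857). Same-numbered arrays did not deviate together (correlations -0.0415 to 0.03, and 1 of 4 EV arrays correlated best with its own number). With the replicate block 0 clusters passed, 0 members and 0 other iron clusters among them, at 3530 clusters with an unadjusted p under 0.05, and the adjusted p was 0.053 for Hp and 0.313 for Hamp.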

Other observations

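The spread between arrays differed among the members. Aco1 had an SD of 0.17 in EV and 0.01 in Zfp125 cells, and the cluster of Trf and Srprb had 0.04 and 0.01, whereas Hamp had the widest spread of the 10 in both groups. No test of these spreads was made.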
